A study of Drosophila melanogaster with 2 samples.

Results

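The genes of the 26S proteasome of Drosophila melanogaster were examined for binding of ADD1. The members were the protein-coding genes whose Ensembl symbol is Prosalpha or Prosbeta followed by 1 to 7, Rpn followed by digits, or Rpt followed by 1 to 6. The rule used names only and no measured value. It gave 32 of 13968 protein-coding genes: 7 genes of the alpha ring, 7 of the beta ring, 6 ATPase genes (Rpt) and 12 non-ATPase genes (Rpn). Members lie on 2L, 2R, 3L, 3R and X, 10 of them on 2R and 0 on chromosomes 4 and Y.

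Binding was measured by ChIP-seq, in which sheared chromatin bound by a protein is recovered with an antibody and sequenced. The chromatin came from whole embryos of mixed sex, 0 to 14 hours old, of a transgenic line that carries the protein product of CG8290, known as ADD1, fused to GFP at its C terminus. All samples form 1 group of 2 biological replicates, numbered 2 and 3, with sheared fragments of 200 to 800 bp, so no cell type was resolved and no second condition exists. The labels name an antibody and assay for CG8290 but also describe both samples as inputs, a contradiction that the files do not settle. No untagged or input sample was analysed here, so how much of a region's signal is shared with chromatin that was not enriched was not tested.

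The proteasome is the large protease that degrades proteins tagged with ubiquitin. Its 20S core is a barrel of alpha rings, which gate the entrance, and beta rings, which hold the proteolytic sites. The 19S particle caps the barrel: the Rpt ATPases unfold substrates and thread them into the core, while the Rpn subunits form the scaffold, bind ubiquitin chains and, through Rpn11, remove them. The subunits form a fixed complex, and their genes are widely expressed and known for coordinated transcription. In flies the Cnc transcription factor, a relative of mammalian Nrf proteins, raises their expression when proteasome activity is impaired. ADD1 carries an ADD domain, a zinc finger fold that reads histone tails, and is known to associate with HP1 in heterochromatin.

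The sequences shown here come from the RefSeq assembly of dm6 and are written in the direction of the gene's transcription, with matches to the searched motifs in capitals. The sequences are those of the reference and not of the transgenic line. Capitals mark TATCGATA (the DRE, bound by Dref), CGATA (contained in the DRE on both strands and known as the core of BEAF-32 sites), the E-box CAGCTG, TGACNNNGC (a Cnc element), and CATCNCTA or CAGCNCTA (Motif 7). TATA boxes and GAGAG were searched but are not capitalised. Each motif was searched on both strands, so CGATA can appear as TATCG. The windows of the strongest peaks of Rpn5, Rpn11 and Rpt3 span 201 bases with the summit at base 101, and are shown because these are the bases under the authors' final peaks. They lie at chr3R:5789069-5789269 (plus strand), chr2L:5059804-5060004 (minus strand) and chrX:11124837-11125037 (plus strand).

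Rpn5: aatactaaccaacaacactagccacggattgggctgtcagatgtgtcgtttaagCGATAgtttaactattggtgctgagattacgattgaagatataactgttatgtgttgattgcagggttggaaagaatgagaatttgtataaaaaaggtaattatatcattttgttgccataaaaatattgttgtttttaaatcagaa

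Rpn11: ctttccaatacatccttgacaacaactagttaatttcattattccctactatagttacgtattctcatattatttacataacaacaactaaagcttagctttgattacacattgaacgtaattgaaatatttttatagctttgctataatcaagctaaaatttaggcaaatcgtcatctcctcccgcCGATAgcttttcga

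Rpt3: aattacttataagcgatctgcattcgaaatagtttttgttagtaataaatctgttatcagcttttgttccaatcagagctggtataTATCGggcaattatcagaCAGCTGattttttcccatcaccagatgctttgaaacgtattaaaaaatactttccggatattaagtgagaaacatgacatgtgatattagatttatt

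The promoter of Prosalpha6, which carries the strongest peak among the members, is shown from 250 bases before its start, with the start at base 251 of 300 (chr2L:10221101-10221400, plus strand). The promoters of Prosbeta2 (chr3L:14999701-15000000, plus strand) and Rpn7 (chr3R:22462005-22462304, minus strand) are shown over the same window as contrasts, because neither gene had a region in any list although both hold a DRE. The promoter of Rpn12 (chr3L:16582778-16583077, plus strand) is shown because its region fell just outside the final list.

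Prosalpha6: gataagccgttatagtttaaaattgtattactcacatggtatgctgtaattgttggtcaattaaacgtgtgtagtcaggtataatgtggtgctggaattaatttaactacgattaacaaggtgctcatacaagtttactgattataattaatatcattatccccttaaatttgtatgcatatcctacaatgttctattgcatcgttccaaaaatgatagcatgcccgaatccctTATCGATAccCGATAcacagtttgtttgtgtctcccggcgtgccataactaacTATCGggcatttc

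Prosbeta2: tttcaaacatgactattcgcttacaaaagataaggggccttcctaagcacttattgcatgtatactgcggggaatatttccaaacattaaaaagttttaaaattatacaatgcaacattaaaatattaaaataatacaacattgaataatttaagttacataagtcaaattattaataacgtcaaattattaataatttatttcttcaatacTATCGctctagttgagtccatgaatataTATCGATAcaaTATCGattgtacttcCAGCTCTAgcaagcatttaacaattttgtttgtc

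Rpn7: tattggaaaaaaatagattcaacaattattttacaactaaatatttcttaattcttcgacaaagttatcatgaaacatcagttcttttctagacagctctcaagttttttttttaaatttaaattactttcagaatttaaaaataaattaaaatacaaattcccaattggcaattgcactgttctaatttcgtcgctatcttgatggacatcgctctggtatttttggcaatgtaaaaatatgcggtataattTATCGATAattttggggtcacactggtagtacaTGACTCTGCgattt

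Rpn12: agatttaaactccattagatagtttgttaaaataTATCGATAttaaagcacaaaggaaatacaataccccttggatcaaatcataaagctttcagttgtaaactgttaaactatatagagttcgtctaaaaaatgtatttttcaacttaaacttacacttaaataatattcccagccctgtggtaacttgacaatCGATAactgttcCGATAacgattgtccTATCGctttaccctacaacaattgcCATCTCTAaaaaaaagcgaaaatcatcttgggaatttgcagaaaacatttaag

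In these sequences the summit windows of Rpn5 and Rpn11 each held a single CGATA and no DRE. Rpn5 has another optimal peak, whose window at chr3R:5789285-5789485 is not printed and held none of the capitalised motifs. The window of Rpt3 held CGATA, which appears as TATCG on the strand shown, and CAGCTG, which began 160 bp before the start. In Prosalpha6 the DRE began 16 bp before the start, whereas the summit lay 112 bp before it. The DRE began 10 bp before the start in Prosbeta2, 216 bp before it in Rpn12 and 3 bp after it in Rpn7.

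A gene was scored as having a region of a list when the summit of that region lay within 500 bp of any annotated start site. Genes called bound are only those with a peak of the authors' thresholded list. The authors' thresholded list, named optimal after the irreproducible discovery rate (IDR) procedure, held 2478 peaks, the same regions as the 2478 strongest of the pooled list. Each of the other lists, for both replicates pooled and for each replicate, held 30000 regions, peaks and background together, ranked by the authors' own signal. That signal has no stated scale, so it serves here for order and description inside each list. Read depth is unknown. Its lowest value in the optimal list was 132.9.

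Optimal peaks lay at 6 of the 32 proteasome genes (18.8%): Prosalpha6 of the core, the ATPase gene Rpt3, and the non-ATPase genes Rpn5, Rpn8, Rpn11 and Rpn13. Among all 13968 protein-coding genes 1754 had such a peak (12.6%), and with so few members the share lies near that background. By subcomplex the peaks fell at 1 of 7 alpha genes, 0 of 7 beta genes, 1 of 6 Rpt genes and 4 of 12 Rpn genes. Thus 5 of the 6 genes encode subunits of the 19S particle and 1 a subunit of the 20S core, and whether the subcomplexes differ was not tested.

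Below the final threshold, regions were more widespread at the members. The pooled list had a region at 25 of 32 genes (78.1%), against 48.9% of all protein-coding genes. The list of replicate 2 had a region at 21 members (65.6%), against 45.5% of all genes, and that of replicate 3 at 25 members (78.1%), against 50.5%. Among the 2478 strongest regions of its own list, replicate 2 placed 5 members (15.6%, background 12.3%) and replicate 3 placed 6 (18.8%, background 12.4%). Given a pooled region, the share with an optimal peak was 24% in the members and 25.7% in all genes. The median pooled rank of the best region was 5411 over these 25 members and 5688 over the 6833 genes with a region. The members thus more often had a listed region, while the ranks of those regions had a median close to that of other genes.

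**Figure D1:**
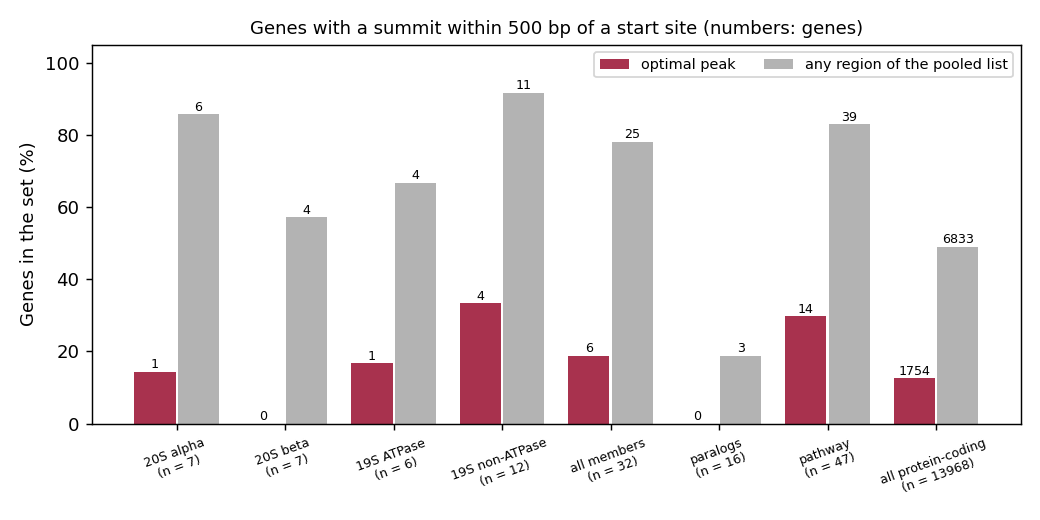
Share of genes (percent, from 0) with an optimal peak (red bars) or any pooled region (grey bars) within 500 bp of a start site, for each subcomplex, all 32 members, the paralogs, the pathway list and all protein-coding genes; numbers over bars are genes. The Rpn genes have the highest optimal share of the member groups (4 of 12), and the beta genes and paralogs have 0.

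The core genes were described first. Prosalpha6 (FBgn0250843, chr2L:10221351-10222546, plus strand), an alpha ring subunit, had the strongest peak of all members, with rank 463 and signal 279.6 at chr2L:10221017-10221460. It ranked 391 in replicate 2 (signal 152.6) and 905 in replicate 3 (signal 111), inside the 2478 strongest of both. Its summit lay 112 bp upstream of Prosalpha6 and 23 bp from the start of the divergent gene Npc1a, whose product is a cholesterol transporter, so the peak is shared. The nearer start differed between the replicates: the summit of replicate 2 lay 134 bp from Prosalpha6 and 1 bp from Npc1a, and that of replicate 3 lay 64 bp from Prosalpha6 and 71 bp from Npc1a. Among 1434 optimal promoter peaks 269 were stronger.

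The other alpha genes had weaker regions or none. Prosalpha2 had pooled rank 5411, Prosalpha3 6278, Prosalpha5 7256 and Prosalpha4 13258, and Prosalpha7 had rank 29682, near the end of the list. Prosalpha7 was absent from replicate 2 and ranked 8469 in replicate 3. Among the alpha genes listed in both replicates the ranks of Prosalpha3 had the widest ratio, with rank 21239 in replicate 2 and 3824 in replicate 3. Prosalpha1 had no region in any list. Its start faces that of CG18853, 384 bp upstream.

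No beta gene reached the optimal list under any rule tried, and 4 of 7 had a pooled region. Prosbeta7 had rank 5117, Prosbeta6 7849, Prosbeta1, which carries the caspase-like site, 8105 and Prosbeta3 15434. The order changed with the replicate: Prosbeta7 ranked 16348 in replicate 2 and 2751 in replicate 3, a ratio of 5.94 and the widest of any member listed in both. Prosbeta2 and Prosbeta5, which carry the trypsin-like and chymotrypsin-like sites, and Prosbeta4 had no region in any list. All 3 of these have a divergent partner, mRpL39 at 285 bp, dgo at 94 bp and Nubp1 at 417 bp.

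Among the ATPase genes only Rpt3 (FBgn0028686, chrX:11125101-11126785, plus strand) had an optimal peak, with rank 2305 and signal 138.7 at chrX:11124715-11125158, its summit 164 bp upstream. It ranked 2656 in replicate 2 (signal 64.94) and 2607 in replicate 3 (signal 70.18), just outside the 2478 strongest of each, so neither replicate alone placed it there. Rpt2 had pooled rank 6752, Rpt6 13620 and Rpt5 15638. Rpt5 was absent from replicate 2 and ranked 4816 in replicate 3. Rpt4 had a region in replicate 2 alone, at rank 22710, and Rpt1 had none in any list.

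The Rpn genes held 4 of the 6 peaks and the highest median pooled signal of the 4 groups, 126 against 77.1, 70.2 and 64.6 for the alpha, beta and Rpt genes. Over the 11 Rpn genes with a pooled region the median rank was 2750, with ranks from 527 to 13722, beside 6767 for the alpha, 7977 for the beta and 10186 for the Rpt genes. These medians are descriptions of 4 to 11 genes each. A single start site was annotated for 50% of the Rpn genes, beside 85.7% of the alpha, 85.7% of the beta and 66.7% of the Rpt genes. The best region is taken over all start sites, and the part of their number in this order was not tested.

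Rpn5 (FBgn0028690, chr3R:5789493-5791569, plus strand), a scaffold subunit of the lid, had 2 optimal peaks. The stronger had rank 527 and signal 263.1 at chr3R:5788947-5789390, 324 bp upstream, and ranked 597 in replicate 2 (signal 129) and 588 in replicate 3 (signal 131.9). It gave the closest agreement in rank among the 6 bound members. The other, of rank 1056 and signal 195, had its summit 108 bp upstream, 1 bp from a start of Hat1, the divergent gene of a histone acetyltransferase.

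Rpn8 (FBgn0002787, chr2R:24400028-24404527, plus strand), which pairs with the deubiquitinase Rpn11 in the lid, also had 2 optimal peaks, of rank 977 (signal 202.8) and rank 1804 (signal 156.1). Their summits lay 274 and 68 bp upstream of an internal start site of Rpn8, and 51 bp from a start of Slik, which encodes a kinase, in the case of the stronger. The stronger ranked 592 in replicate 2 (signal 129.3) and 1799 in replicate 3 (signal 82.15). Neither lay within 500 bp of the outermost start of Rpn8, so this gene counts as bound through its internal start.

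Rpn11 (FBgn0028694, chr2L:5058404-5059790, minus strand), the deubiquitinase of the lid, had rank 2079 and signal 146 at chr2L:5059682-5060125, 114 bp upstream, with rank 2139 in replicate 2 (signal 73.17) and 1491 in replicate 3 (signal 89.1). It was the only bound member with no other annotated start site within 500 bp of the summit. Rpn13 (FBgn0033886, chr2R:13958545-13960404, minus strand), a ubiquitin receptor of the base, had rank 2460 and signal 133.4, with its summit 84 bp upstream and 187 bp from a start of CtsL1. The best rank of Rpn13 was 5073 in replicate 2 (signal 46.32) and 1892 in replicate 3 (signal 80.62), so replicate 2 alone did not place it among the strongest. In replicate 3 the region of rank 1892 had its summit 281 bp upstream, and another of rank 1945 (signal 79.75) had it 13 bp upstream.

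The final threshold passed between neighbouring members. Rpn13 lay just inside at rank 2460 (signal 133.4) and Rpn12, a lid subunit, just outside at rank 2499 (signal 132.4). Rpn12 was among the strongest of replicate 2, at rank 2381, and ranked 2841 in replicate 3. Rpn10, another ubiquitin receptor, had pooled rank 2750 (signal 126.3), with rank 1444 in replicate 3 and 4763 in replicate 2.

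Next in order were Rpn9 at 3579 (signal 109.7), then Prosbeta7 (signal 89.75), Rpn3 at 5139 (signal 89.51) and Rpn1, the large scaffold subunit of the base, at 5180 (signal 88.93). In replicate 2 these 4 ranked 7264, 16348, 6411 and 5019, and in replicate 3 they ranked 2845, 2751, 5955 and 6150. None was among the strongest regions of either replicate. Rpn6 had rank 10351 and Rpn2 13722, both without a region in replicate 2. Rpn7 had none in any list.

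**Figure D2:**
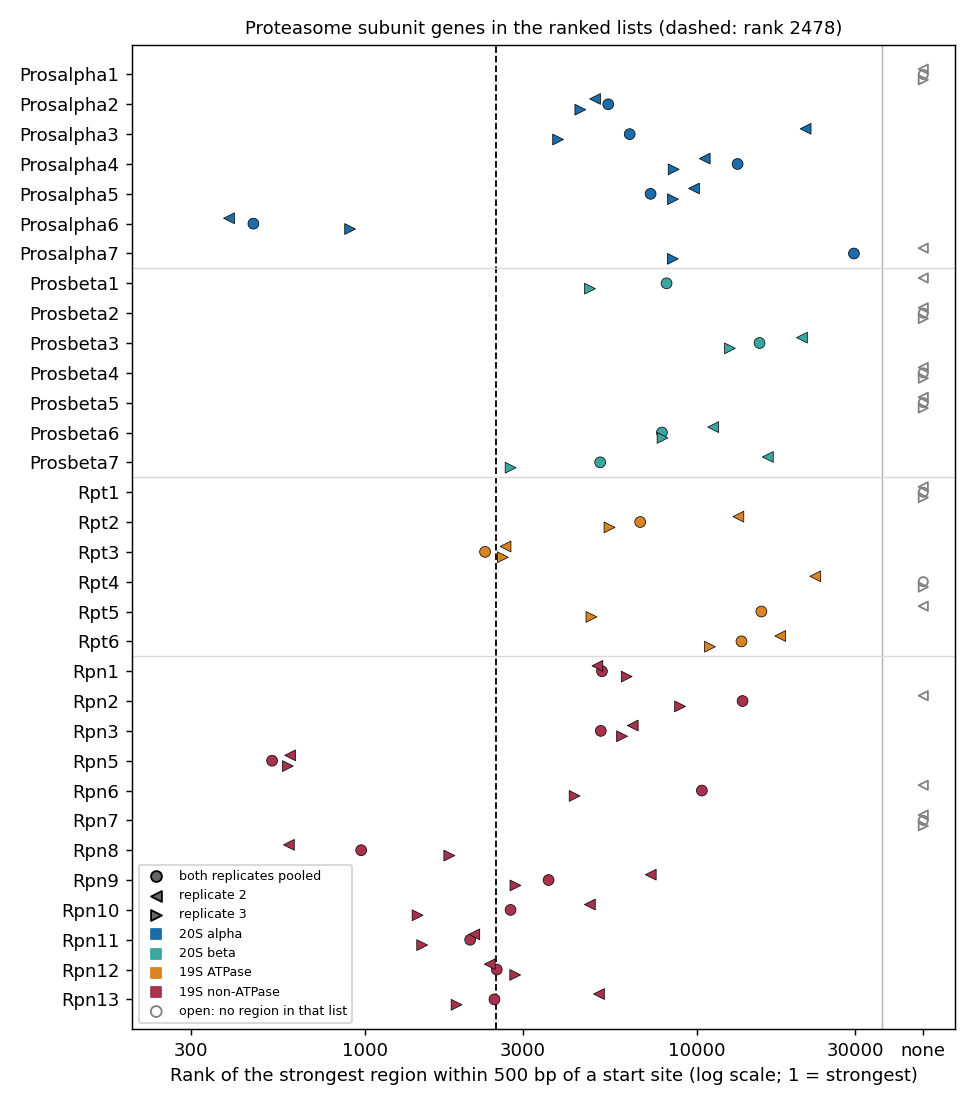
Rank of the strongest region within 500 bp of a start site of each of the 32 members (log scale, 1 is strongest) in the pooled list (circles), replicate 2 (left triangles) and replicate 3 (right triangles), coloured by subcomplex. The dashed line is rank 2478, and open symbols at the right are members with no region in that list; 6 circles lie left of the line, at ranks 463 to 2460.

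The replicates shared most members. A region was found in both replicates at 20 members, in replicate 3 alone at 5, in replicate 2 alone at 1 and in neither at 6. Across these 20 genes, which are not independent replicates, Spearman's rho between the ranks of replicate 2 and replicate 3 was 0.749, beside 0.694 across all protein-coding genes found in both. Ranks lay within 2-fold of each other at 12 of the 20 (60%), against 58.6% of the 5329 protein-coding genes found in both. Each rank is that of the strongest region in that replicate, so both ranks of a gene can belong to different regions. At Rpt6, for example, the summit lay 297 bp downstream of the start in replicate 2 and 36 bp upstream in replicate 3. Replicate 3 gave the higher rank at 16 of the 20 members, against 51.9% of all such genes. Depth of either replicate is unknown, and its part in this was not tested. The 4 members among the strongest of both replicates were Prosalpha6, Rpn5, Rpn8 and Rpn11.

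**Figure D3:**
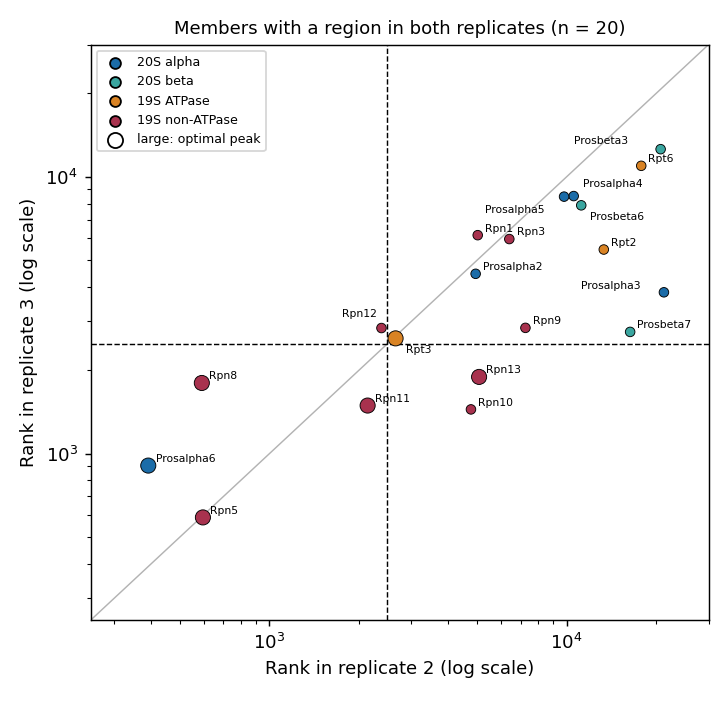
Rank in replicate 2 against rank in replicate 3 (both log scales) for the 20 members with a region in both; large points have an optimal peak and dashed lines mark rank 2478. Prosalpha6, Rpn5, Rpn8 and Rpn11 lie inside both lines, and 16 points lie below the diagonal of equal rank.

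The strongest summits at the members lay mostly just upstream of the nearest annotated start site, which can be an internal one. Of the strongest pooled regions at 25 members 22 (88%) had their summit upstream, against 73.4% over all genes with a region. The 3 downstream were those of Prosalpha5, Rpn9 and Rpt6. Among the 22, the summits of Prosbeta7, Rpt2, Rpn6 and Rpn8 lay inside the gene, upstream of an internal start site only. The median distance was 84 bp, with values from 7 to 367 bp, against 134 bp over all genes, and 13 lay within 100 bp. At the 6 genes with an optimal peak all summits were upstream, with a median of 139 bp, and for all such genes 86.2% were upstream with a median of 136 bp. The distances at these 6 members ran from 84 to 324 bp, so their median describes few and widely spread values.

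At 14 of the 25 members (56%, against 37.4% of all genes with a region) the pooled list held more than 1 region. The smallest spacing of their summits was 201 to 670 bp with a median of 214 bp, against 221 bp over all genes. Rpn5, Rpn8, Rpn11, Rpn13 and Rpt3 each had such a pair, 203 to 216 bp apart, less than the 444 bp width of these regions, so that both intervals overlap. No optimal peak lay in the body of any of the 26 other members, and the optimal summit nearest to a start site of these was 1472 to 102451 bp away, with a median of 8131 bp.

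Many proteasome genes stand head to head with another gene. A protein-coding gene on the other strand started within 1000 bp upstream of 19 of 32 members (59.4%), against 35.2% of all protein-coding genes. Over all genes an optimal peak lay at 22% of those with such a partner and at 7.41% of those without. Among the members it lay at 4 of 19 with a partner (21.1%) and 2 of 13 without (15.4%). For regions of the pooled list the split was different. Such a region lay at 13 of 19 members with a partner (68.4%), beside 69.7% of all genes with one, and at 12 of 13 members without a partner (92.3%), beside 37.7% of all genes without one. The higher share of members with a pooled region therefore lay in the members without a partner. Of the 6 bound members, 5 share their strongest summit with a start site of another protein-coding gene within 500 bp, and over all bound genes 58.7% do. Which gene of a pair a summit belongs to cannot be told apart at this distance.

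**Figure D4:**
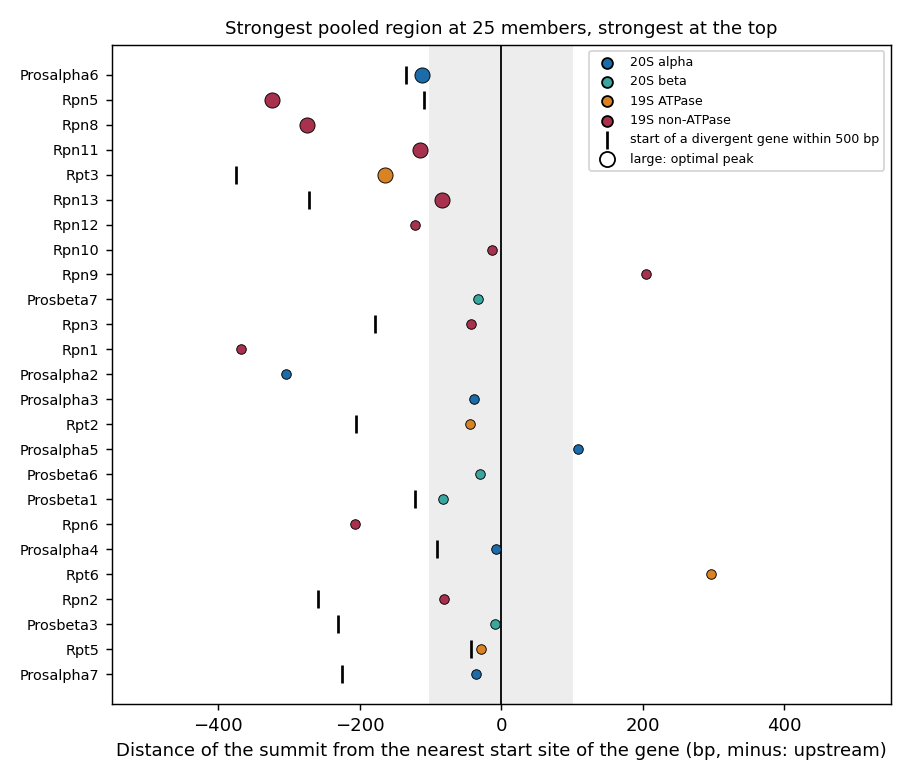
Distance (bp, minus is upstream) of the strongest pooled summit from the nearest start site for the 25 members with a region, strongest at the top; large points have an optimal peak, the grey band spans 100 bp either side, and ticks mark the start of a divergent gene within 500 bp of the same start site. Points crowd upstream of 0, and the 6 large points lie 84 to 324 bp upstream.

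The count of annotated start sites also differed between genes, and a gene with more sites has more windows in which a summit can fall. A single start site was annotated for 22 of the members (68.8%) and for 73.5% of all protein-coding genes. Optimal peaks lay at 3 of 22 members with 1 start site (13.6%) and at 3 of 10 with more (30%), beside 9.18% and 21.9% of all genes. All 10 members with several start sites had a pooled region, as did 15 of 22 with 1 (68.2%), beside 71% and 41% of all genes.

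Of the 9 motifs searched, the DRE had the highest ratio of its share in the members to its share in all genes. From 250 bp before to 50 bp after the outermost start, TATCGATA was present in 12 of 32 members (37.5%) and in 9.36% of 13968 promoters, and CGATA in 27 (84.4%) against 47.3%. The DRE is known as the site of Dref, a factor of growth and replication genes. It stood in all subcomplexes: in Prosalpha3, Prosalpha5 and Prosalpha6, in Prosbeta1, Prosbeta2 and Prosbeta6, in Rpt5, and in Rpn3, Rpn7, Rpn9, Rpn12 and Rpn13. The DRE reads the same on both strands, and each DRE also counts as CGATA. The GC content had a median of 33.5% in the member promoters and 38% in all, and its part in these shares was not tested.

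The other motifs stood on either side of the background. Motif 1, known as the site of M1BP, was in 4 members (12.5%, all promoters 4.49%), Motif 7 in 6 (18.8%, 9.73%) and the Cnc element in 5 (15.6%, 8.62%): Prosalpha2, Prosbeta3, Rpn1, Rpn7 and Rpt6. TATAAA was in 13 (40.6%, 45.8%), GAGAG in 3 (9.38%, 29.7%), CAGCTG in 1 (3.12%, 17.6%) and CACGTG in 0 (4.2%). All motifs were searched on both strands. A match describes letters in a window and not a bound site.

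**Figure D5:**
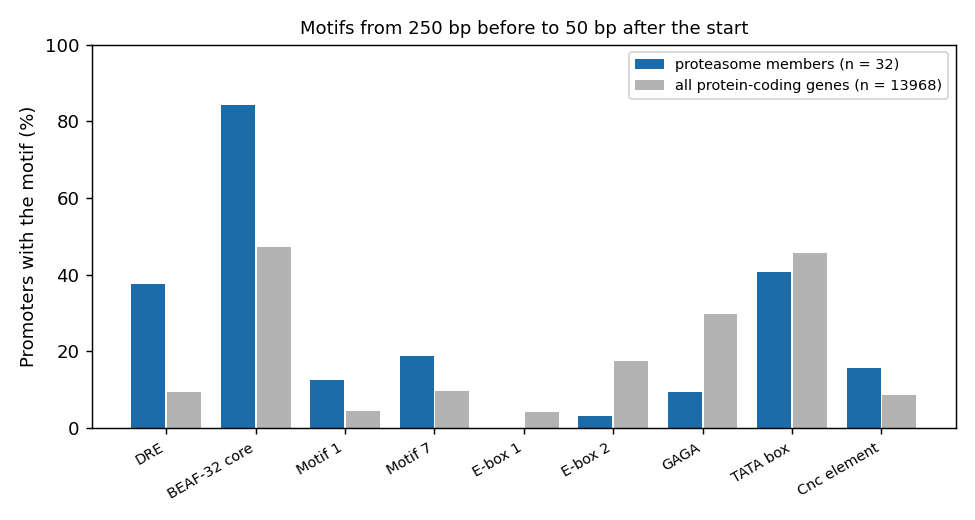
Share of promoters (percent, from 0) that hold each of 9 motifs from 250 bp before to 50 bp after the outermost start, for the 32 members (blue bars) and all 13968 protein-coding genes (grey bars); E-box 1 is CACGTG and E-box 2 is CAGCTG. The DRE bars stand at 37.5% and 9.36%, and the GAGA bars at 9.38% and 29.7%.

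The DRE was found both in members with a peak and in members without one. It was in 2 of the 6 members with an optimal peak, Prosalpha6 and Rpn13, and in 10 of the 26 without. Over all promoters it was in 16.2% of those with a peak and 8.37% of those without. These windows lay around the outermost start and did not hold the strongest summit of Rpn5 or Rpn8. That summit lay 324 bp upstream in Rpn5 and at an internal start in Rpn8. Within 100 bp of the 8 optimal summits at the members there was no complete DRE, against 9.43% of 1368 optimal summits at protein-coding promoters. The window at Prosalpha6 ended inside the DRE of its promoter, and the TATCG left in it counts as CGATA below. CGATA stood within 100 bp of 5 of the 8, TATAAA of 4, CAGCTG of 2 and GAGAG of 2, beside 41.9%, 32.3%, 13.1% and 25.4% of the 1368. The Cnc element, CACGTG, Motif 1 and Motif 7 were at 0 of the 8 summits.

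The members were set beside their paralogs. The fly genome carries 16 further genes named as T or R copies of subunits, several of them known for expression in the testis, such as Prosalpha4T1 and Prosbeta5R1. Of these 0 had an optimal peak, and 3 had a pooled region (18.8%, background 48.9%): Prosbeta2R2 at rank 8259, Rpn13R at 14152 and Rpt3R at 20665. The other 13 had no region in any list. The DRE was in 0 of the 16 promoters and CGATA in 8.

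Beyond the subunits, the wider pathway was described in the same way. Of a list of 47 ubiquitin and proteasome pathway genes, 14 had an optimal peak (29.8%, background 12.6%) and 39 a pooled region (83%, background 48.9%). PI31, a regulator of the 20S core, had the highest rank, 2, with signal 1586; its summit lies 229 bp upstream and is shared with a start of ADD1, the gene of the tagged protein, and whether the transgene adds to it was not tested. CSN3, a subunit of the COP9 signalosome, which is built like the lid, ranked 89 (signal 500.3). Hrd3, of endoplasmic reticulum degradation, ranked 105 (signal 469.9) and CG12321 ranked 399 (signal 293.8). The summit at Hrd3 lay 165 bp from Hrd3 and 157 bp from a start of PTPMT1. That at CG12321 lay 194 bp from CG12321 and 171 bp from a start of MED17. With each summit assigned to its nearest protein-coding gene alone, 9 of the 14 pathway genes kept an optimal peak.

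Uch, a ubiquitin hydrolase, ranked 464 (signal 279.3), directly after Prosalpha6. The ubiquitin-conjugating enzyme gene eff ranked 897 (signal 210.8), the ubiquitin fusion gene RpS27A 936 (signal 207) and the SUMO-activating enzyme gene Uba2 989 (signal 200.8). The summit at RpS27A lay 68 bp from both RpS27A and Ip259, and that at Uba2 lay 149 bp from Uba2 and 87 bp from Cds. Cul2, ntc, Ubc6, Ubi-p5E, rngo and Rad23 made up the other 6. A divergent partner within 1000 bp was present at 28 of the 47 (59.6%, background 35.2%), and its part in the count was not tested. The gene cnc, which encodes the regulator Cnc itself, had no optimal peak and pooled rank 4306, Pomp, which encodes a chaperone of core assembly, had 7576, and Pngl, CG8858 and CSN6 had no region in any list.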

How the data were processed

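Chromatin of 2 embryo samples was measured by ChIP-seq. The authors deposited 4 lists of regions on dm6 in the narrowPeak layout, and per the file headers and labels the replicate and pooled lists hold peaks and background prepared for IDR. The deposited score is the authors' signal per region on an unstated scale. For the aligner, peak caller and IDR threshold: not given in the sources used here. Depth is unknown.

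Summits (region start plus offset) were matched to start sites of Ensembl release 115 (BDGP6, dm6 coordinates) on 7 chromosomes, without transposable elements, for 18277 genes, using Python 3.11.15 and pandas 2.3.3. Rank 1 is the highest signal. With 1 group and no control, no test was made: counts stand beside all protein-coding genes. Motifs were searched in the RefSeq dm6 sequence on both strands. No sequence was printed for members on 2R.

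Members and lists were chosen with earlier results of these data known. All members are accounted for; those with a peak, the next 6 and those without any region are named. Of 56 pathway symbols, 47 matched the annotation and 9 did not. The search was tested on simulated data.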

Additional observations from a re-analysis of the deposited data

How the results depend on the processing

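No paired analysis was possible because there is 1 group. The 6 members with an optimal peak were the same 6 with windows of 200 and 1000 bp and with overlap of the interval (18.8%). The share of all protein-coding genes was 9.34%, 14.2% and 9.42% under these settings, beside 12.6% in the main one. The stronger 1239 optimal peaks left 3 of these 6 and 3 of 32 members in all (Prosalpha6, Rpn5 and Rpn8), with 0 Rpt genes, 2 Rpn genes, 9 pathway genes and a background of 6.59%. Assigning each summit to its nearest protein-coding gene left 4 members, without Prosalpha6 and Rpn5, 0 alpha genes and 9 pathway genes (12.5% of members and 19.1% of pathway genes, background 8.77%). Peaks among the strongest of both replicates left 4 (12.5%, background 8.48%), with 0 Rpt genes, since Rpt3 and Rpn13 dropped out. Using the outermost start alone left 5 (15.6%, background 11.2%), without Rpn8. Leaving out replicate 2 or replicate 3 gave 6 and 5 members (18.8% and 15.6%, backgrounds 12.4% and 12.3%), with 0 to 0 Rpt genes in either case: replicate 3's list lost Rpt3 and gained Rpn10, and replicate 2's lost Rpt3 and Rpn13 and gained Rpn12. A search 100 bp either side of the start gave TATAAA in 7 member promoters (21.9%, all promoters 29.1%). In the same window CAGCTG was in 0 member promoters (all promoters 13.7%). Of 94 values under alternatives 13 moved by more than 1.5 times and 81 did not. The 81 include values that were 0 in every setting, for the beta genes, the paralogs and CACGTG. They also include falls from 6 to 4 members. Members count again in their subcomplexes, so the 94 values are not separate checks. With unknown depth, a member without a region is one not listed among 30000, and not one shown to be unbound.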
